A study of Mus musculus with 96 samples.

Results

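The one-carbon genes of the liver are the enzymes that move single carbon units between serine, glycine, choline, methionine and folate. A set of 31 genes was chosen by name, from the methionine cycle, folate interconversion, choline breakdown, trans-sulfuration, serine and glycine metabolism and purine synthesis. The choice was made with earlier results of these data known. A gene was measured through probe sets annotated to it alone, and where it had several the one with the highest mean signal was used. Of the 31 genes, 29 had such a probe set and all 29 were among the 14813 genes tested. The signals of Mat2a and Amt were not analysed here.

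Liver RNA came from 96 male mice of 6 strains, namely the inbred 129S1/SvImJ, CBA/J, DBA/2J, C57BL6/J and C3H/HeJ, and B6C3F1/J, a hybrid of the C57BL6/J and C3H/HeJ lines. In each strain 8 mice received 25% fewer calories from 8 weeks of age and 8 received the control diet, and tissue was taken at 22 weeks, after 14 weeks on the diets. All mice, controls included, arrived at 6 weeks of age, were caged alone and ate 84 kcal a week of an AIN93M-type diet for 2 weeks before the diets began. None carries a transgene or engineered allele in the labels, and each mouse had an array of its own. The comparison asks which liver genes respond to calorie restriction and whether that response depends on the strain.

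In one-carbon metabolism, folate carries units taken mainly from serine, glycine and choline-derived methyl groups, and methionine passes methyl groups on through S-adenosylmethionine. The liver holds most of the body's capacity for this cycle: it makes S-adenosylmethionine with Mat1a, uses it in glycine and phospholipid methylation, and returns homocysteine to methionine or sends it to cysteine. Mitochondria supply formate to the cytosol, where it enters purines, methionine or, when oxidised, carbon dioxide.

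Values are log2 signals, and each difference is the restricted mean minus the control mean on that scale. Its SE and its p, adjusted over all 14813 genes, come from limma, and an adjusted p under 0.05 counts as a call. The mean of the array medians was 6.71, so a level below it lies in the dimmer part of the array, where the size of a difference is uncertain.

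Some arrays stood apart from the rest. The median log2 signal lay between 6.21 and 7.50 in 94 arrays and above 8 in DBA/2J restricted replicate 6 and B6C3F1/J control replicate 2. Restricted CBA/J arrays averaged a median of 7.29, where their controls averaged 6.52, and a Gapdh 3' minus 5' difference of -0.03, against -0.41 in controls. The same Gapdh measure in DBA/2J was 0.10 in restricted arrays and -0.29 in controls, and -0.24 in the 7 restricted arrays other than replicate 6, which was at 2.51. The hepatocyte markers, 6 of 7 tested, had group means of 15.26 to 17.15 in restricted mice and 15.43 to 16.25 in controls, as a liver sample should give, and differed by 1.46 in CBA/J. In that strain the lymphocyte and cholangiocyte marker lists were also higher, by 1.56 and 1.33, although all 5 and all 4 of their tested genes lay below the mean array median. The CBA/J difference was 0.43 for Kupffer cell, 0.29 for endothelial cell, 0.34 for stellate cell, 0.45 for pericentral and 0.82 for periportal hepatocyte markers. In bulk liver, fewer cells of a type and less RNA per cell cannot be told apart. The part of these measures in the diet differences of the one-carbon genes was not tested.

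Averaged over the 6 strains, 9 of the 29 one-carbon genes were higher on the restricted diet, 3 were lower and 17 were not called. Of all genes tested, 27.6% were called, 15.2% higher and 12.4% lower, against 41.4% of the one-carbon genes. Because these genes were chosen with earlier results known, such shares, here and below, describe the set and do not test it. The median difference was 0.14 over the one-carbon genes and 0.07 over all genes. The genes higher were the folate enzymes Mthfd1, Aldh1l1 and Mthfd1l, the phospholipid methyltransferase Pemt, the trans-sulfuration enzyme Cbs, the serine enzyme Psat1, and, with smaller differences, Sardh, Gnmt and Ahcy. Bhmt, Bhmt2 and Chdh, which serve choline and betaine breakdown and homocysteine methylation, were the lower ones. Quantile normalization of the arrays gave 6 higher and 4 lower, where 11.7% of all genes were higher and 11.3% lower. Gnmt, Ahcy and Sardh were then no longer called, and Dmgdh was called lower. Each array's median as covariate gave 12 higher and 2 lower, where 17.2% of all genes were higher and 11.9% lower. Without the 2 bright arrays 12 were higher, Mat1a, Cth and Gart being added, and 3 lower, where 33.8% of all genes were called. Without CBA/J, 7 were higher and 3 lower, where 17.5% of all genes were called.

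**Figure D1:**
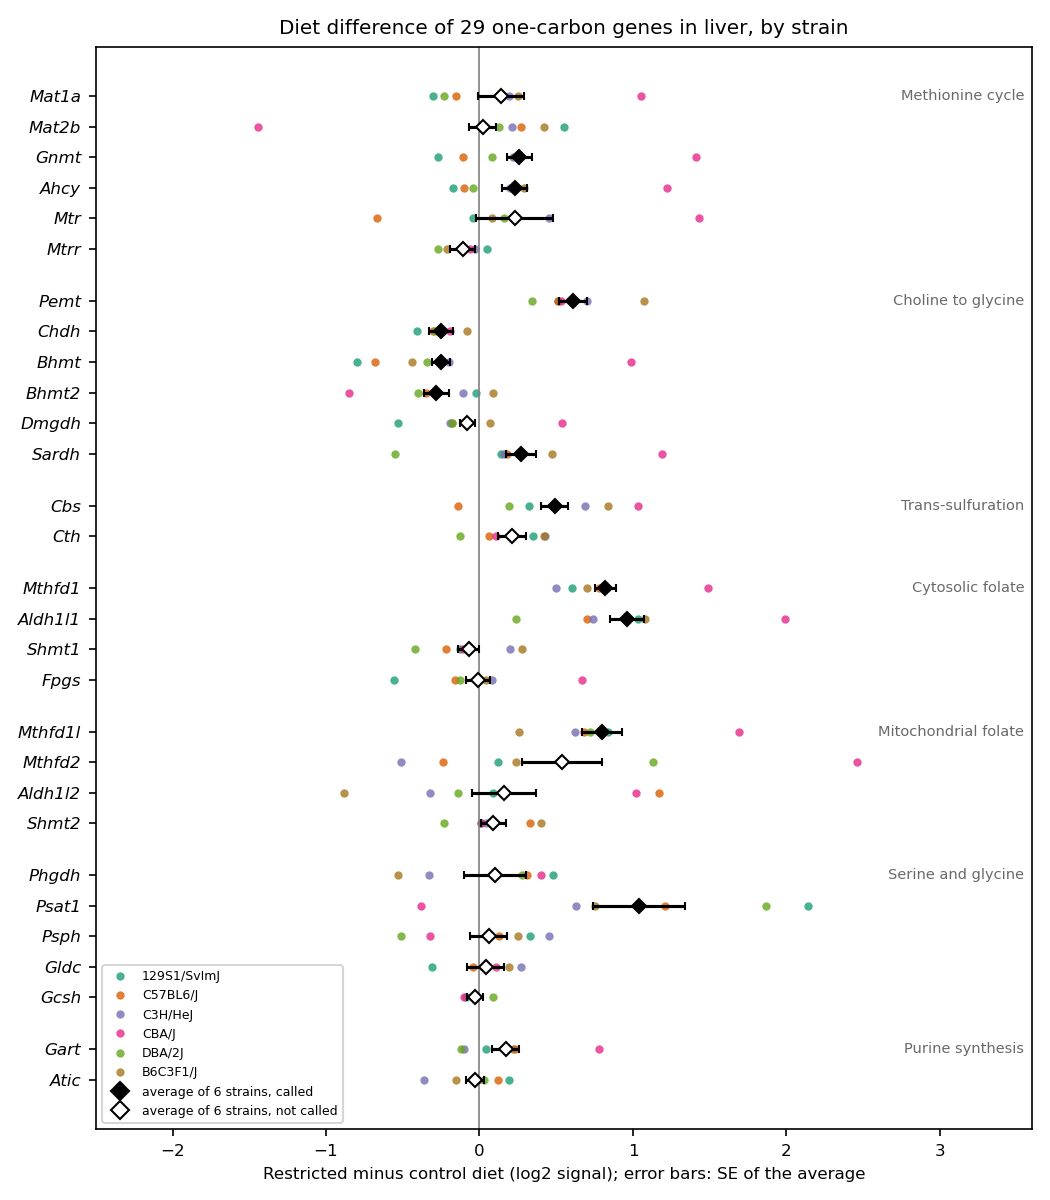
Restricted minus control difference (x axis, log2 signal) of the 29 genes, grouped by role down the y axis. Coloured points are the 6 strains, diamonds the average of the strains with its SE, filled where called; Mthfd1, Aldh1l1, Mthfd1l and Pemt lie right of 0 in all 6 strains, and CBA/J is often the strain farthest from the others.

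The promoters of Mthfd1, Aldh1l1, Mthfd1l and Pemt are shown because these genes were called and, by the probe set used, had a positive difference in all 6 strains. Each window runs from 250 bases before to 50 bases after the start site, 5' to 3' on the gene's own strand, from RefSeq in build GRCm38.p6. Capitals mark CCAAT boxes (CCAAT or its complement ATTGG) and GC boxes (GGGCGG or CCGCCC), found on both strands with no overlap between them.
Mthfd1, chr12:76254982-76255281, plus strand: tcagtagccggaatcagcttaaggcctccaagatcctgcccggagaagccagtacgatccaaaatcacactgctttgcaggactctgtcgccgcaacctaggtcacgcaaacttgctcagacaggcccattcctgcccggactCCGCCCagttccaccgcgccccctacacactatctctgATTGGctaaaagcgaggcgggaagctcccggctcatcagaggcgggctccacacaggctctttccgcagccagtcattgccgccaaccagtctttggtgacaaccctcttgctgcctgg
Aldh1l1, chr6:90550543-90550842, plus strand: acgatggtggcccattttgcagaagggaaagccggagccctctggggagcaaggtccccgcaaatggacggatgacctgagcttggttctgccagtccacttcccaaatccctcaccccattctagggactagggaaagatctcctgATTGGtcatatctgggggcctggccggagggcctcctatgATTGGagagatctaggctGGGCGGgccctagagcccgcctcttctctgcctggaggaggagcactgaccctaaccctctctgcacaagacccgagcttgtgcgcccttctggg
Mthfd1l, chr10:3972825-3973124, plus strand: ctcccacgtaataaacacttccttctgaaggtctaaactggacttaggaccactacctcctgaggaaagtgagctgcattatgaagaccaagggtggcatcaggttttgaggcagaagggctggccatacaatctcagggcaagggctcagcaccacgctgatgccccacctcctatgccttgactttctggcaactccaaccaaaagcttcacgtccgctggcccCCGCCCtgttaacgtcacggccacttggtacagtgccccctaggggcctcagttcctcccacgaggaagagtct
Pemt, the first of its listed start sites, chr11:60040139-60040438, minus strand: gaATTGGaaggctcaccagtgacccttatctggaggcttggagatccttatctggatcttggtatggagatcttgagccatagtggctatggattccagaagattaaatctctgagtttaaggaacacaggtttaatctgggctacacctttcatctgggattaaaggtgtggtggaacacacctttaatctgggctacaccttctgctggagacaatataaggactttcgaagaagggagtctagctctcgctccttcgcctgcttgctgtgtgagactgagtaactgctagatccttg
Across 32851 mouse promoters of the same length, 37.4% held a CCAAT box and 35.7% a GC box. Of the 33 windows of 28 one-carbon genes, 23 held a CCAAT box and 22 a GC box. Windows were sought for all 31 named genes, Mat2a and Amt included. A chromosome filter was applied to these windows and not to all promoters. An E-box (CACGTG) was found in 2 of these windows and in 7.15% of all promoters. The element TGATGNAA, bound by C/EBP and ATF proteins, was in 0 of the 33 and in 3.97% of all promoters. These matches describe the letters in the window only.

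The cytosolic folate enzymes Mthfd1 and Aldh1l1 gave the clearest rises, by the probe sets used. Mthfd1 makes and interconverts formyl-, methenyl- and methylenetetrahydrofolate in the cytosol. Averaged over strains it was 1.76-fold higher on the restricted diet (0.82 ± 0.07 SE, adjusted p = 1.22e-16). Mthfd1 in 129S1/SvImJ had log2 signals of 12.42 to 13.31, median 12.93, in restricted mice, against 11.83 to 12.78, median 12.33, in control mice. Mthfd1 log2 signals in C57BL6/J were 12.39 to 13.07, median 12.87, on the restricted diet and 11.59 to 12.67, median 12.01, on the control diet. The Mthfd1 log2 signal in C3H/HeJ was 12.51 to 13.08, median 12.90, in restricted mice and 11.92 to 12.65, median 12.38, in controls. The upper part of each restricted group lay above every control mouse in these strains, while the lower part overlapped. Mthfd1 log2 signals in CBA/J were 13.67 to 14.39, median 13.92, on the restricted diet and 12.11 to 12.75, median 12.57, on the control diet. The Mthfd1 log2 signal in DBA/2J was 12.36 to 13.15, median 12.60, in restricted mice and 11.14 to 12.63, median 11.92, in controls. Mthfd1 in B6C3F1/J had log2 signals of 12.84 to 13.62, median 13.09, in restricted mice, against 10.80 to 13.05, median 12.57, in control mice. In CBA/J every restricted mouse lay above every control. By the probe set used, Mthfd1 was called in more strains than any other of the 29 genes, all but C3H/HeJ, where the difference was 0.50 ± 0.18 SE, adjusted p = 0.166. The largest strain difference was 1.49 in CBA/J, and 1.33 there after quantile normalization. Without the 2 bright arrays the B6C3F1/J call was lost, at 0.47 (adjusted p = 0.0595).

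The probe sets of Mthfd1 differed. The one used had a mean log2 signal of 12.66. A second, at a mean of 12.20, had an averaged difference of 0.38 (adjusted p = 0.000611 over all probe sets tested). By that second set no single strain was called, CBA/J was at 0.15 (adjusted p = 0.62), and the interaction of strain and diet had an adjusted p of 0.853, so the strain calls and the interaction call of Mthfd1 rest on 1 probe set. The dimmest, at a mean of 9.09, had 0.03 (adjusted p = 0.89), and in CBA/J it was -1.45 where the set used was 1.49. The platform marks the probes of the dimmest set as able to match other transcripts. The sets used for Shmt2 and Phgdh carry the same mark.

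Aldh1l1, which oxidises formyltetrahydrofolate to carbon dioxide and free folate, was 1.95-fold higher on the restricted diet (0.96 ± 0.11 SE, adjusted p = 1.78e-12). Aldh1l1 in 129S1/SvImJ had log2 signals of 14.41 to 15.28, median 14.93, in restricted mice, against 13.05 to 14.38, median 13.89, in control mice. Aldh1l1 log2 signals in C57BL6/J were 14.16 to 14.79, median 14.52, on the restricted diet and 13.31 to 14.60, median 13.69, on the control diet. The Aldh1l1 log2 signal in C3H/HeJ was 14.86 to 15.19, median 15.05, in restricted mice and 13.99 to 14.59, median 14.38, in controls. The 2 diets did not overlap in 129S1/SvImJ or C3H/HeJ. Aldh1l1 log2 signals in CBA/J were 15.16 to 16.50, median 16.02, on the restricted diet and 13.25 to 14.49, median 14.04, on the control diet. The Aldh1l1 log2 signal in DBA/2J was 11.33 to 15.19, median 14.70, in restricted mice and 13.49 to 14.74, median 14.05, in controls. Aldh1l1 in B6C3F1/J had log2 signals of 14.83 to 15.60, median 15.12, in restricted mice, against 11.93 to 14.66, median 14.35, in control mice. In CBA/J and B6C3F1/J, too, every restricted mouse lay above every control. The lowest DBA/2J restricted value and the lowest B6C3F1/J control value belong to the 2 bright arrays. Calls were made in 129S1/SvImJ (1.03), CBA/J (1.99) and B6C3F1/J (1.08). The DBA/2J difference was 0.24 with all arrays and 0.67 (adjusted p = 0.00278) without the bright ones. A second, dimmer probe set gave 0.50 for the average (adjusted p = 0.00962). By that set no single strain was called, DBA/2J was at -0.49 (adjusted p = 0.504), and the interaction of strain and diet had an adjusted p of 0.125. The strain calls and the interaction call of Aldh1l1 therefore rest on 1 probe set.

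The remaining cytosolic folate enzymes were not called in the average. Shmt1, which splits serine into glycine and a folate-bound carbon, had -0.07 ± 0.07 SE, adjusted p = 0.515, with strain differences of -0.42 in DBA/2J to 0.28 in B6C3F1/J. None of its 3 other probe sets was called in the average, but 1, at a mean of 11.93, was lower in CBA/J (-0.94, adjusted p = 2.86e-05), where the set used was at -0.11. With each array's median as covariate the set used was higher in CBA/J (0.55, adjusted p = 0.000926). Fpgs, which adds the glutamate tail that keeps folate in the cell, had -0.01 ± 0.08 SE, adjusted p = 0.942. Its strain differences ran from -0.56 in 129S1/SvImJ to 0.67 in CBA/J and it was called in CBA/J (adjusted p = 0.00252). The difference of Fpgs in 129S1/SvImJ had an adjusted p of 0.0576.

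**Figure D2:**
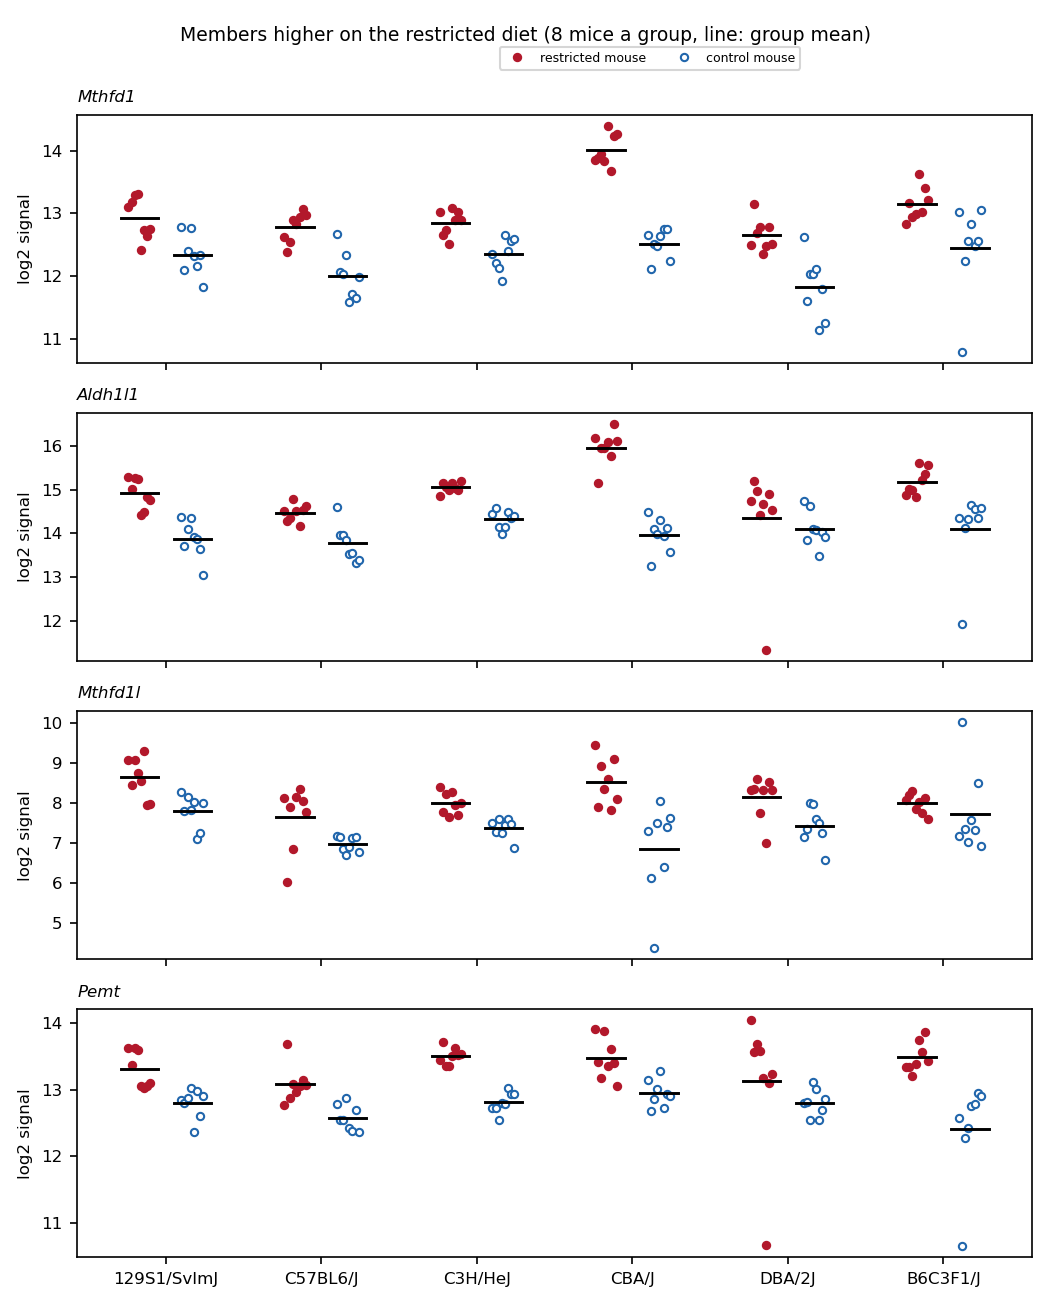
Log2 signal (y axis) of Mthfd1, Aldh1l1, Mthfd1l and Pemt in each of the 96 mice, by strain (x axis), with restricted mice as filled red points left of control mice as open blue points and group means as lines. Single low points in DBA/2J restricted and B6C3F1/J control mice, for example 11.33 and 11.93 for Aldh1l1, come from the 2 bright arrays.

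Among mitochondrial folate enzymes only Mthfd1l was called in the average with the signals as deposited. Mthfd1l releases formate from formyltetrahydrofolate in mitochondria and was 1.74-fold higher on the restricted diet (0.80 ± 0.13 SE, adjusted p = 2.02e-07). The Mthfd1l log2 signal in 129S1/SvImJ was 7.97 to 9.30, median 8.66, in restricted mice and 7.10 to 8.28, median 7.92, in controls. Mthfd1l in C57BL6/J had log2 signals of 6.03 to 8.36, median 7.99, in restricted mice, against 6.70 to 7.19, median 7.02, in control mice. Mthfd1l log2 signals in C3H/HeJ were 7.67 to 8.40, median 7.99, on the restricted diet and 6.89 to 7.62, median 7.47, on the control diet. Every restricted C3H/HeJ mouse lay above every control, and the other pairs overlapped. Mthfd1l in CBA/J had log2 signals of 7.84 to 9.46, median 8.48, in restricted mice, against 4.38 to 8.06, median 7.36, in control mice. Mthfd1l log2 signals in DBA/2J were 7.0 to 8.60, median 8.34, on the restricted diet and 6.59 to 8.01, median 7.43, on the control diet. The Mthfd1l log2 signal in B6C3F1/J was 7.62 to 8.32, median 8.06, in restricted mice and 6.93 to 10.03, median 7.35, in controls. The medians were higher on the restricted diet in all 6 strains. CBA/J was the 1 strain with a call of its own (1.69 ± 0.31 SE, adjusted p = 6.19e-06), which was 1.46 after quantile normalization. The high B6C3F1/J control value of 10.03 was from the bright array, and without both such arrays the average was 0.88.

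Mthfd2, the mitochondrial methylenetetrahydrofolate dehydrogenase, was dim, and all 12 of its group means were under the mean array median. Its averaged difference was 0.54 ± 0.26 SE, adjusted p = 0.117. Mthfd2 in 129S1/SvImJ had log2 signals of 5.20 to 7.60, median 6.53, in restricted mice, against 5.40 to 6.81, median 6.41, in control mice. Mthfd2 log2 signals in C57BL6/J were 4.75 to 6.50, median 5.19, on the restricted diet and 5.16 to 5.81, median 5.59, on the control diet. The Mthfd2 log2 signal in C3H/HeJ was 1.58 to 6.14, median 5.87, in restricted mice and 4.28 to 6.84, median 5.92, in controls. These 3 strains overlapped throughout, with 1 restricted C3H/HeJ mouse far below the others. Mthfd2 log2 signals in CBA/J were 4.23 to 7.99, median 6.80, on the restricted diet and 1.17 to 6.03, median 4.56, on the control diet. The Mthfd2 log2 signal in DBA/2J was 3.37 to 7.81, median 7.09, in restricted mice and 1.26 to 7.17, median 6.44, in controls. Mthfd2 in B6C3F1/J had log2 signals of 5.33 to 6.46, median 6.23, in restricted mice, against 2.59 to 7.68, median 5.89, in control mice. Only CBA/J was called, at 2.46 ± 0.64 SE, adjusted p = 0.00121, and with each array's median as covariate it was 1.37 (adjusted p = 0.127). Its other probe set gave -0.09 for the average (adjusted p = 0.835).

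Aldh1l2, the mitochondrial counterpart of Aldh1l1, had an averaged difference of 0.16 ± 0.21 SE, adjusted p = 0.64, at a mean level of 6.48, below the mean array median. It ranged from -0.88 in B6C3F1/J to 1.17 in C57BL6/J, with no strain called. Shmt2, the mitochondrial serine hydroxymethyltransferase, had 0.09 ± 0.08 SE, adjusted p = 0.422 and strain differences of -0.23 in DBA/2J to 0.40 in B6C3F1/J, also with no strain called. With each array's median as covariate Shmt2 was called in the average (0.19, adjusted p = 0.0261) and in CBA/J (0.60, adjusted p = 0.00711).

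Choline reaches the one-carbon pool through betaine, dimethylglycine and sarcosine, and Pemt is the enzyme that makes choline groups in the liver by methylating phosphatidylethanolamine. Pemt was 1.52-fold higher on the restricted diet (0.61 ± 0.09 SE, adjusted p = 6.91e-09). The Pemt log2 signal in 129S1/SvImJ was 13.03 to 13.63, median 13.24, in restricted mice and 12.37 to 13.03, median 12.86, in controls. Pemt in C57BL6/J had log2 signals of 12.77 to 13.68, median 13.06, in restricted mice, against 12.36 to 12.88, median 12.54, in control mice. Pemt log2 signals in C3H/HeJ were 13.35 to 13.72, median 13.51, on the restricted diet and 12.54 to 13.02, median 12.80, on the control diet. In C3H/HeJ the diets did not overlap, yet its own test missed the threshold (0.70 ± 0.21 SE, adjusted p = 0.0583). Pemt in CBA/J had log2 signals of 13.05 to 13.91, median 13.41, in restricted mice, against 12.68 to 13.28, median 12.92, in control mice. Pemt log2 signals in DBA/2J were 10.66 to 14.04, median 13.40, on the restricted diet and 12.54 to 13.11, median 12.81, on the control diet. The Pemt log2 signal in B6C3F1/J was 13.20 to 13.87, median 13.41, in restricted mice and 10.65 to 12.95, median 12.66, in controls. The diets did not overlap in B6C3F1/J either, which had the largest difference (1.07 ± 0.21 SE, adjusted p = 0.000263), and CBA/J was also called (0.53). Differences in the other strains ran from 0.34 in DBA/2J upwards. Without the 2 bright arrays they were 0.69 in DBA/2J (adjusted p = 2.25e-05) and 0.82 in B6C3F1/J. The interaction of strain and diet was not called for Pemt (adjusted p = 0.35).

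Chdh, the choline dehydrogenase that starts the oxidation of choline to betaine, was 1.19-fold lower on the restricted diet (-0.25 ± 0.08 SE, adjusted p = 0.0145). Chdh in 129S1/SvImJ had log2 signals of 12.18 to 12.64, median 12.37, in restricted mice, against 11.95 to 13.20, median 12.92, in control mice. Chdh log2 signals in C57BL6/J were 10.64 to 12.37, median 12.24, on the restricted diet and 11.80 to 12.76, median 12.42, on the control diet. The Chdh log2 signal in C3H/HeJ was 11.99 to 12.39, median 12.29, in restricted mice and 12.06 to 12.76, median 12.59, in controls. Restricted medians were below control medians in each, with wide overlap. Chdh log2 signals in CBA/J were 11.93 to 12.93, median 12.32, on the restricted diet and 12.14 to 13.03, median 12.54, on the control diet. The Chdh log2 signal in DBA/2J was 10.40 to 12.11, median 11.28, in restricted mice and 10.83 to 12.53, median 11.58, in controls. Chdh in B6C3F1/J had log2 signals of 12.13 to 12.58, median 12.24, in restricted mice, against 10.76 to 12.95, median 12.59, in control mice. The same held in these 3 strains, and no single strain was called. With each array's median as covariate the averaged difference of Chdh was -0.18 and no longer called (adjusted p = 0.0672). Its strain by diet interaction had an adjusted p of 0.928.

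Bhmt, which uses betaine to turn homocysteine back into methionine, was 1.19-fold lower on average (-0.25 ± 0.06 SE, adjusted p = 0.0014), but its strains moved in opposite directions as deposited. The Bhmt log2 signal in 129S1/SvImJ was 15.83 to 16.53, median 16.23, in restricted mice and 16.50 to 17.61, median 17.06, in controls. Bhmt in C57BL6/J had log2 signals of 14.97 to 15.63, median 15.31, in restricted mice, against 15.63 to 16.30, median 16.02, in control mice. Bhmt log2 signals in C3H/HeJ were 15.84 to 16.39, median 15.97, on the restricted diet and 15.83 to 16.50, median 16.25, on the control diet. In 129S1/SvImJ and C57BL6/J the 2 ranges barely touched, with restricted mice below. Bhmt in CBA/J had log2 signals of 16.92 to 17.77, median 17.35, in restricted mice, against 16.09 to 16.69, median 16.38, in control mice. Bhmt log2 signals in DBA/2J were 15.18 to 17.13, median 16.53, on the restricted diet and 16.39 to 16.98, median 16.87, on the control diet. The Bhmt log2 signal in B6C3F1/J was 15.75 to 16.60, median 15.97, in restricted mice and 16.06 to 16.97, median 16.56, in controls. In CBA/J every restricted mouse lay above every control, while in the other 5 strains the restricted median was below the control median. Calls were -0.80 ± 0.16 SE, adjusted p = 0.00013 in 129S1/SvImJ, -0.68 ± 0.16 SE, adjusted p = 0.00252 in C57BL6/J and 0.99 ± 0.16 SE, adjusted p = 1.7e-07 in CBA/J. The CBA/J direction turned with quantile normalization, to -0.40 ± 0.11 SE, adjusted p = 0.00207. It was 0.85 (adjusted p = 0.000474) after centring on the 75th percentile and 1.01 with each array's median as covariate. After quantile normalization the average of Bhmt was -0.49 (adjusted p = 7.62e-17). DBA/2J (-0.52, adjusted p = 0.000427) and B6C3F1/J (-0.59, adjusted p = 5.81e-05) were then called too, and C3H/HeJ was not (-0.35, adjusted p = 0.0702). Without CBA/J the average was -0.49 (adjusted p = 5.38e-08).

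Bhmt2, a relative that uses S-methylmethionine as methyl donor, was 1.21-fold lower (-0.28 ± 0.08 SE, adjusted p = 0.00562). Bhmt2 in 129S1/SvImJ had log2 signals of 13.55 to 13.98, median 13.89, in restricted mice, against 13.73 to 14.05, median 13.86, in control mice. Bhmt2 log2 signals in C57BL6/J were 13.21 to 13.53, median 13.39, on the restricted diet and 13.39 to 14.11, median 13.65, on the control diet. The Bhmt2 log2 signal in C3H/HeJ was 13.68 to 14.13, median 14.0, in restricted mice and 13.71 to 14.24, median 14.11, in controls. The diets overlapped in all 3 strains, with lower restricted values in C57BL6/J. Bhmt2 log2 signals in CBA/J were 12.51 to 13.88, median 13.38, on the restricted diet and 13.95 to 14.42, median 14.25, on the control diet. The Bhmt2 log2 signal in DBA/2J was 13.09 to 13.84, median 13.63, in restricted mice and 13.66 to 14.15, median 13.89, in controls. Bhmt2 in B6C3F1/J had log2 signals of 13.64 to 13.92, median 13.78, in restricted mice, against 10.79 to 14.41, median 14.09, in control mice. In CBA/J every restricted mouse lay below every control (-0.85 ± 0.20 SE, adjusted p = 0.000299), the 1 strain called. That difference was -0.95 after quantile normalization and -0.13 with each array's median as covariate (adjusted p = 0.602). Without CBA/J the averaged difference was -0.16 and not called (adjusted p = 0.255). The lowest B6C3F1/J control value, 10.79, was from a bright array, and the B6C3F1/J difference of Bhmt2 was 0.09 with it and -0.33 without it (adjusted p = 0.0687). The other probe set of Bhmt2 gave -0.22 for the average (adjusted p = 0.0185).

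Dmgdh, the mitochondrial enzyme that demethylates dimethylglycine to sarcosine, was not called in the average (-0.08 ± 0.05 SE, adjusted p = 0.299). The Dmgdh log2 signal in 129S1/SvImJ was 12.96 to 13.34, median 13.21, in restricted mice and 13.51 to 13.99, median 13.69, in controls. Dmgdh in C57BL6/J had log2 signals of 13.07 to 13.43, median 13.22, in restricted mice, against 13.09 to 13.66, median 13.45, in control mice. Dmgdh log2 signals in C3H/HeJ were 12.73 to 13.51, median 13.28, on the restricted diet and 13.12 to 13.65, median 13.48, on the control diet. In 129S1/SvImJ every restricted mouse lay below every control. Dmgdh in CBA/J had log2 signals of 13.51 to 14.12, median 13.92, in restricted mice, against 13.15 to 13.47, median 13.34, in control mice. Dmgdh log2 signals in DBA/2J were 12.66 to 13.55, median 13.39, on the restricted diet and 13.09 to 13.92, median 13.44, on the control diet. The Dmgdh log2 signal in B6C3F1/J was 13.17 to 13.72, median 13.39, in restricted mice and 12.06 to 13.78, median 13.47, in controls. In CBA/J the order was the reverse, with every restricted mouse above every control. Calls were -0.53 ± 0.13 SE, adjusted p = 0.00496 in 129S1/SvImJ and 0.54 ± 0.13 SE, adjusted p = 0.000566 in CBA/J, where it was 0.39 after quantile normalization. Without CBA/J, Dmgdh was lower in the average (-0.20, adjusted p = 0.0137). It was also called without B6C3F1/J control replicate 2 (-0.11, adjusted p = 0.0441).

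Sardh, which demethylates sarcosine to glycine, was 1.2-fold higher (0.27 ± 0.10 SE, adjusted p = 0.0356). Its strain differences ran from -0.55 in DBA/2J to 1.19 in CBA/J, the 1 strain called. In CBA/J the Sardh log2 signal was 13.37 to 14.46, median 13.65, in restricted mice and 11.63 to 13.23, median 12.64, in controls, with no overlap. That difference was 1.07 after quantile normalization. The averaged call was lost without CBA/J (0.08, adjusted p = 0.718) and on leaving out any of 7 single arrays. They were B6C3F1/J control replicate 2, which gave the smallest value, 0.22 (adjusted p = 0.0505), B6C3F1/J restricted replicate 8, DBA/2J restricted replicates 2 and 3, CBA/J restricted replicate 7, CBA/J control replicate 2 and 129S1/SvImJ control replicate 8. The other 6 left Sardh at 0.24 to 0.25, with adjusted p of 0.0502 to 0.0566. The other probe set of Sardh gave 0.43 (adjusted p = 0.0067).

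Bhmt2 and Dmgdh are neighbours that share a promoter region, which is shown because the pair moved in opposite directions in CBA/J. Their start sites lie 134 bases apart on opposite strands, and 233 of the 300 bases of the Bhmt2 window also lie in the Dmgdh window, chr13:93674186-93674485 on the plus strand, in GRCm38.p6. Capitals mark CCAAT and GC boxes as above.
Bhmt2, chr13:93674253-93674552, minus strand: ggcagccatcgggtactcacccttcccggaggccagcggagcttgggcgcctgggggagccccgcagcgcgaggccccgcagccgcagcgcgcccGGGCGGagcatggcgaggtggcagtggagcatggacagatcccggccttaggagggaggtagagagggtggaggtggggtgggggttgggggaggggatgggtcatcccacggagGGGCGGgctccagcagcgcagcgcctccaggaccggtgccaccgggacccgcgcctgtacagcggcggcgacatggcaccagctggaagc
In CBA/J, Bhmt2 was at -0.85 and Dmgdh at 0.54, while in 129S1/SvImJ they were at -0.02 and -0.53. The difference between the 2 genes was not tested.

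**Figure D3:**
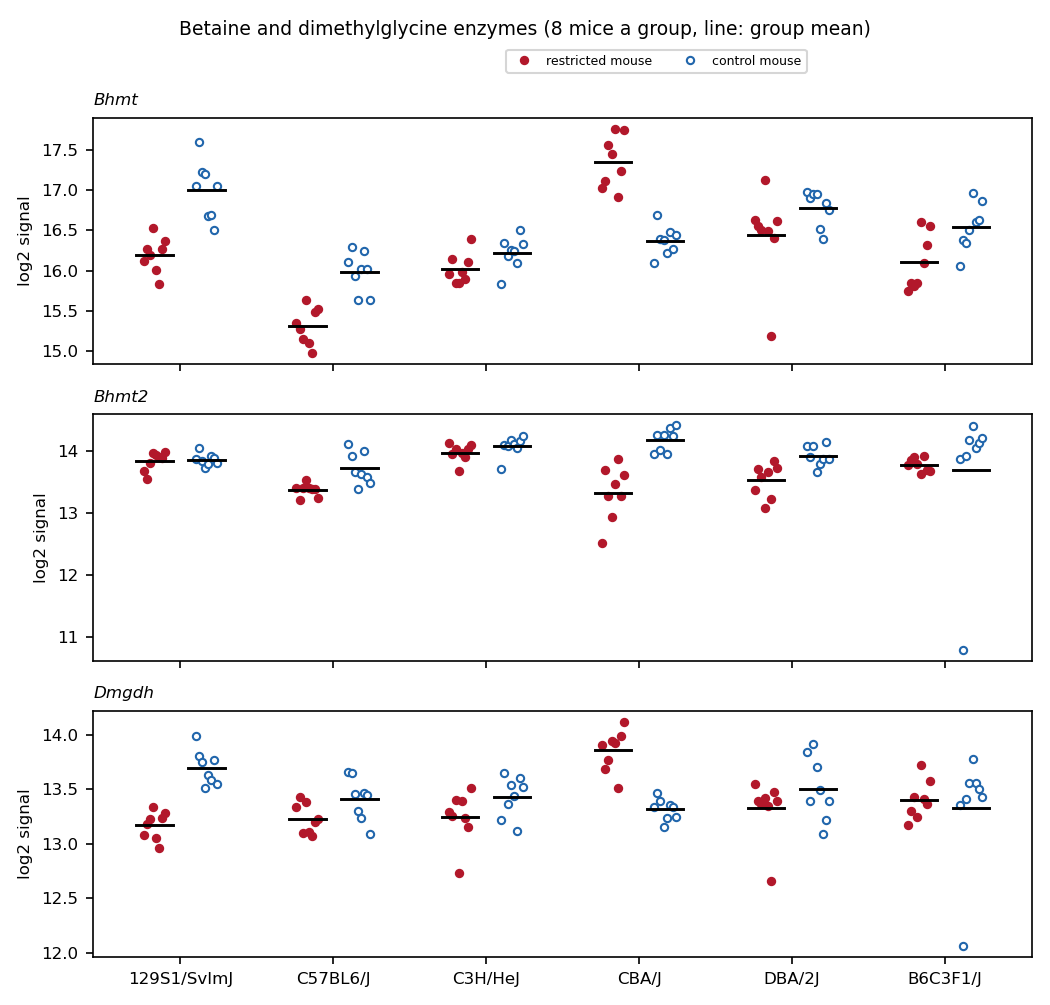
Log2 signal (y axis) of Bhmt, Bhmt2 and Dmgdh in each of the 96 mice, by strain (x axis), with restricted mice as filled red points left of control mice as open blue points and group means as lines. In CBA/J the restricted mice lie above the controls for Bhmt and Dmgdh and below them for Bhmt2.

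In the methionine cycle proper, Gnmt and Ahcy were called in the average and the others were not. Gnmt, which spends S-adenosylmethionine on glycine and is among the brightest of these genes, was 1.2-fold higher (0.26 ± 0.08 SE, adjusted p = 0.0101). Gnmt in 129S1/SvImJ had log2 signals of 15.77 to 16.45, median 16.24, in restricted mice, against 15.90 to 17.11, median 16.53, in control mice. Gnmt log2 signals in C57BL6/J were 15.02 to 15.73, median 15.32, on the restricted diet and 15.03 to 15.83, median 15.48, on the control diet. The Gnmt log2 signal in C3H/HeJ was 15.83 to 16.22, median 15.97, in restricted mice and 15.39 to 16.05, median 15.85, in controls. The diets overlapped in all 3. Gnmt log2 signals in CBA/J were 16.81 to 17.61, median 17.22, on the restricted diet and 15.56 to 16.25, median 15.79, on the control diet. The Gnmt log2 signal in DBA/2J was 13.89 to 17.14, median 16.40, in restricted mice and 15.82 to 16.40, median 16.05, in controls. Gnmt in B6C3F1/J had log2 signals of 15.79 to 16.79, median 15.95, in restricted mice, against 15.0 to 16.45, median 16.04, in control mice. Only in CBA/J did they separate, with every restricted mouse above every control (1.41 ± 0.20 SE, adjusted p = 1.26e-08). After quantile normalization the CBA/J difference of Gnmt was 0.11 ± 0.10 SE, adjusted p = 0.437. Without CBA/J the average was 0.03 (adjusted p = 0.878).

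Ahcy, which splits S-adenosylhomocysteine to homocysteine, was 1.18-fold higher (0.23 ± 0.08 SE, adjusted p = 0.0284). Its strain differences ran from -0.17 in 129S1/SvImJ to 1.22 in CBA/J, the 1 strain called. In CBA/J the Ahcy log2 signal was 16.78 to 17.12, median 17.03, in restricted mice and 15.56 to 16.07, median 15.78, in controls, with no overlap. That difference was 0.01 after quantile normalization (adjusted p = 0.953), and the average without CBA/J was 0.03.

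Mat1a, the liver's S-adenosylmethionine synthetase, was not called in the average (0.14 ± 0.15 SE, adjusted p = 0.541). In CBA/J the Mat1a log2 signal was 16.37 to 16.64, median 16.48, in restricted mice and 15.34 to 15.53, median 15.43, in controls (1.05 ± 0.36 SE, adjusted p = 0.0154), and the difference was 0.07 after quantile normalization. The average rested on 1 array: without DBA/2J restricted replicate 6 it was 0.28 (adjusted p = 0.00012). In DBA/2J itself Mat1a was at -0.23 with all arrays and 0.61 (adjusted p = 0.000343) without the bright one.

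Mat2b, the regulatory subunit of the Mat2a synthetase, had an average near 0 (0.02 ± 0.09 SE, adjusted p = 0.871), with strains on both sides of 0. The Mat2b log2 signal in 129S1/SvImJ was 9.27 to 10.74, median 9.83, in restricted mice and 8.30 to 10.25, median 9.24, in controls. Mat2b in C57BL6/J had log2 signals of 10.46 to 11.28, median 10.79, in restricted mice, against 10.28 to 10.94, median 10.59, in control mice. Mat2b log2 signals in C3H/HeJ were 9.18 to 9.81, median 9.52, on the restricted diet and 8.88 to 9.62, median 9.33, on the control diet. Restricted medians were the higher ones here, with overlap. Mat2b in CBA/J had log2 signals of 7.64 to 9.44, median 8.45, in restricted mice, against 9.46 to 10.31, median 9.92, in control mice. Mat2b log2 signals in DBA/2J were 9.59 to 10.15, median 9.96, on the restricted diet and 9.35 to 10.27, median 9.89, on the control diet. The Mat2b log2 signal in B6C3F1/J was 8.50 to 10.10, median 9.62, in restricted mice and 8.40 to 9.44, median 9.14, in controls. Every restricted CBA/J mouse lay below every control (-1.44 ± 0.21 SE, adjusted p = 2.21e-08), and in the other 5 strains restricted medians were higher. The CBA/J fall was -1.66 after quantile normalization and -1.07 with each array's median as covariate, both called. Without CBA/J, Mat2b was higher in the average (0.32, adjusted p = 0.00878).

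Mtr and Mtrr, the cobalamin-dependent methionine synthase and the reductase that reactivates it, were not called in the average. Mtr had 0.23 ± 0.25 SE, adjusted p = 0.524, at a mean level of 6.40, below the mean array median, and ranged from -0.67 in C57BL6/J to 1.43 in CBA/J. Its CBA/J call as deposited was lost after quantile normalization (0.83, adjusted p = 0.305). A second probe set of Mtr, at a mean of 6.13, gave 0.42 for the average (adjusted p = 0.158 over all probe sets tested). By that set CBA/J (1.49, adjusted p = 0.0215) and DBA/2J (1.66, adjusted p = 0.0463) were called, and C57BL6/J was at -0.67. Mtrr had -0.11 ± 0.08 SE, adjusted p = 0.357 and ranged from -0.27 in DBA/2J to 0.05 in 129S1/SvImJ, with no strain called.

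Trans-sulfuration carries homocysteine to cysteine through Cbs and then Cth. Cbs, which joins homocysteine to serine, was 1.4-fold higher on the restricted diet (0.49 ± 0.09 SE, adjusted p = 9.45e-06). The Cbs log2 signal in 129S1/SvImJ was 12.43 to 13.52, median 12.90, in restricted mice and 12.06 to 13.29, median 12.61, in controls. Cbs in C57BL6/J had log2 signals of 11.94 to 12.47, median 12.20, in restricted mice, against 11.76 to 12.95, median 12.28, in control mice. Cbs log2 signals in C3H/HeJ were 12.39 to 12.98, median 12.74, on the restricted diet and 11.60 to 12.75, median 11.93, on the control diet. C57BL6/J was the 1 strain with a lower restricted median. Cbs in CBA/J had log2 signals of 11.96 to 12.77, median 12.48, in restricted mice, against 10.80 to 11.83, median 11.34, in control mice. Cbs log2 signals in DBA/2J were 10.19 to 13.26, median 12.52, on the restricted diet and 11.70 to 13.34, median 12.11, on the control diet. The Cbs log2 signal in B6C3F1/J was 12.86 to 13.46, median 13.05, in restricted mice and 11.15 to 12.90, median 12.45, in controls. Every restricted CBA/J mouse lay above every control. Calls were 1.03 ± 0.22 SE, adjusted p = 0.00011 in CBA/J and 0.84 ± 0.22 SE, adjusted p = 0.0135 in B6C3F1/J, and the CBA/J value was 1.12 after quantile normalization. A second probe set gave 0.54 for the average (adjusted p = 0.000329).

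Cth, which releases cysteine from cystathionine, just missed the threshold (0.21 ± 0.09 SE, adjusted p = 0.0622), with strain differences of -0.13 in DBA/2J to 0.43 in C3H/HeJ and no strain called. With each array's median as covariate Cth was called in the average (0.34, adjusted p = 9.81e-06) and in CBA/J (0.92, adjusted p = 1.22e-05). Its average was called on leaving out any of 8 single arrays, of which DBA/2J restricted replicate 6 moved it most (0.25, adjusted p = 0.00681). The other 7 were CBA/J restricted replicate 8, B6C3F1/J restricted replicate 7, B6C3F1/J control replicates 5 and 6, and control replicate 2 of 129S1/SvImJ, C57BL6/J and C3H/HeJ, which gave 0.22 to 0.23 with adjusted p of 0.0384 to 0.0491.

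Of the serine synthesis enzymes, Psat1, the phosphoserine aminotransferase, had the largest averaged difference of all 29 genes, 2.05-fold (1.04 ± 0.30 SE, adjusted p = 0.00429), at a dim mean level of 5.31. Psat1 in 129S1/SvImJ had log2 signals of 3.25 to 7.17, median 5.81, in restricted mice, against 1.28 to 6.13, median 3.20, in control mice. Psat1 log2 signals in C57BL6/J were 5.26 to 7.71, median 6.06, on the restricted diet and 1.45 to 6.14, median 5.51, on the control diet. The Psat1 log2 signal in C3H/HeJ was 3.34 to 7.17, median 6.26, in restricted mice and 3.07 to 6.89, median 5.24, in controls. Mice of 1 group differed by several log2 units, and the diets overlapped. Psat1 log2 signals in CBA/J were 3.03 to 7.24, median 4.54, on the restricted diet and 2.31 to 6.47, median 5.73, on the control diet. The Psat1 log2 signal in DBA/2J was 4.14 to 8.12, median 6.53, in restricted mice and 2.71 to 6.83, median 4.46, in controls. Psat1 in B6C3F1/J had log2 signals of 3.14 to 7.59, median 6.62, in restricted mice, against 2.37 to 8.82, median 5.26, in control mice. All 12 groups had means below the mean array median, so the size of the fold is uncertain. Restricted medians of Psat1 were higher in every strain except CBA/J, and no single strain was called. The nearest to a call was 129S1/SvImJ (2.14 ± 0.72 SE, adjusted p = 0.0659). A second probe set, equally dim, gave 0.92 for the average (adjusted p = 0.0134).

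Phgdh and Psph, the first and last enzymes of the same path, were not called in the average. Phgdh had 0.10 ± 0.20 SE, adjusted p = 0.752, with strain differences of -0.53 in B6C3F1/J to 0.48 in 129S1/SvImJ. A dim probe set of Phgdh, at a mean of 5.78, was higher in CBA/J (1.99, adjusted p = 0.0134). Psph had 0.06 ± 0.12 SE, adjusted p = 0.784, with strain differences of -0.51 in DBA/2J to 0.45 in C3H/HeJ.

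Of the glycine cleavage system of mitochondria, Gldc and Gcsh were measured, and with the signals as deposited neither was called in the average or in a strain. Gldc, the decarboxylase, had an averaged difference of 0.04 ± 0.12 SE, adjusted p = 0.844. The Gldc log2 signal in 129S1/SvImJ was 10.58 to 11.56, median 11.03, in restricted mice and 10.19 to 12.10, median 11.33, in controls. Gldc in C57BL6/J had log2 signals of 8.91 to 11.15, median 10.65, in restricted mice, against 9.77 to 11.58, median 10.55, in control mice. Gldc log2 signals in C3H/HeJ were 10.25 to 11.43, median 11.13, on the restricted diet and 10.17 to 11.63, median 10.71, on the control diet. The groups overlapped almost fully. Gldc in CBA/J had log2 signals of 10.21 to 11.14, median 10.79, in restricted mice, against 10.22 to 10.86, median 10.68, in control mice. Gldc log2 signals in DBA/2J were 7.94 to 11.54, median 10.21, on the restricted diet and 8.83 to 11.40, median 9.69, on the control diet. The Gldc log2 signal in B6C3F1/J was 9.53 to 10.71, median 10.33, in restricted mice and 8.59 to 10.66, median 10.21, in controls. DBA/2J mice spread most, on both diets. With each array's median as covariate Gldc was called in CBA/J (0.80, adjusted p = 0.043). Gcsh, the lipoyl carrier protein, had -0.03 ± 0.05 SE, adjusted p = 0.74, with strain differences of -0.10 in CBA/J to 0.09 in DBA/2J.

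The purine enzymes Gart and Atic, which take up formyl groups from folate, were not called in the average. Gart had 0.17 ± 0.09 SE, adjusted p = 0.148 and was called in CBA/J, where its log2 signal was 10.55 to 11.20, median 10.84, in restricted mice and 9.51 to 10.32, median 10.21, in controls (0.78 ± 0.22 SE, adjusted p = 0.00315). Without DBA/2J restricted replicate 6 the Gart average was 0.25 (adjusted p = 0.000372). Its probe sets disagreed, and 1 of the dimmer ones was lower on the restricted diet (-0.30, adjusted p = 0.00662). In CBA/J that set was at -0.90 (adjusted p = 0.000526), while the other dimmer ones were at 0.86 (adjusted p = 0.0312) and 0.70 (adjusted p = 0.107). Atic had -0.03 ± 0.06 SE, adjusted p = 0.755, with strain differences of -0.36 in C3H/HeJ to 0.19 in 129S1/SvImJ.

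Within single strains the counts of one-carbon genes called were small except in CBA/J. In 129S1/SvImJ, 2 were higher (Mthfd1 and Aldh1l1) and 2 lower (Bhmt and Dmgdh), where 5.26% of all genes were called, 2.79% higher and 2.47% lower. C57BL6/J had Mthfd1 higher and Bhmt lower, where 3.71% of all genes were called, 1.86% higher and 1.85% lower. In B6C3F1/J the 4 genes called, Cbs, Mthfd1, Aldh1l1 and Pemt, were all higher, and 4.60% of all genes were called, 3.35% higher and 1.26% lower. Without the bright arrays Cbs, Aldh1l1 and Pemt were higher there and Bhmt lower (-0.47, adjusted p = 0.0227), at 4.55% of all genes, where Bhmt with all arrays was at -0.44 (adjusted p = 0.0797). DBA/2J had, by the probe sets used, Mthfd1 alone, higher, at 6.75% of all genes, 2.30% higher and 4.45% lower. In DBA/2J without the bright array, Mat1a, Mthfd1, Mthfd1l, Aldh1l1 and Pemt were higher and Bhmt2 lower, at 8.34% of all genes. C3H/HeJ had 0 calls by limma, against 1.95% of all genes, 1.10% higher and 0.851% lower, while 7 of its genes had an unadjusted p under 0.05. Those 7 were Cbs, Cth, Mthfd1, Mthfd1l, Aldh1l1, Pemt and Atic. The share of all genes at an unadjusted p under 0.05 was not counted, so these 7 have no background beside them.

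In CBA/J, 15 one-carbon genes were higher and 2 lower, or 58.6%, where 40.7% of all genes were called, 25.1% higher and 15.6% lower. The median difference in CBA/J was 0.54 over the one-carbon genes and 0.31 over all genes. After quantile normalization 10 were higher and 3 lower, all genes split into 13.5% higher and 17.3% lower, and the 2 medians were 0.11 and 0.07. With each array's median as covariate 17 were higher and 1 lower, where 32.8% of all genes were called. Mthfd1, Aldh1l1, Mthfd1l, Pemt, Cbs, Sardh, Dmgdh, Fpgs and Gart were called higher, and Mat2b lower, as deposited and under these 2 treatments of the arrays. Centring the arrays on their 75th percentile gave 11 higher and 2 lower, where 35.5% of all genes were called, and of these genes Pemt (0.39, adjusted p = 0.246) and Dmgdh (0.40, adjusted p = 0.0783) lost their calls there. By other probe sets, as deposited, Cbs (1.12) and Sardh (1.13) were also called higher in CBA/J, while Aldh1l1 was not (0.86, adjusted p = 0.0612). The other Mthfd1 sets were at 0.15 (adjusted p = 0.62) and -1.45 (adjusted p = 1.04e-05). The other Gart sets were at 0.86, 0.70 and -0.90, the last called lower (adjusted p = 0.000526). Mat1a, Gnmt and Ahcy were higher as deposited and with the covariate but at 0.07, 0.11 and 0.01 after quantile normalization. With centring, Gnmt (1.27, adjusted p = 3.97e-05) and Ahcy (1.08, adjusted p = 0.000753) were called and Mat1a was not (0.91, adjusted p = 0.0693). The hepatocyte marker list was itself higher by 1.46 in CBA/J, and its part in these differences was not tested.

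**Figure D4:**
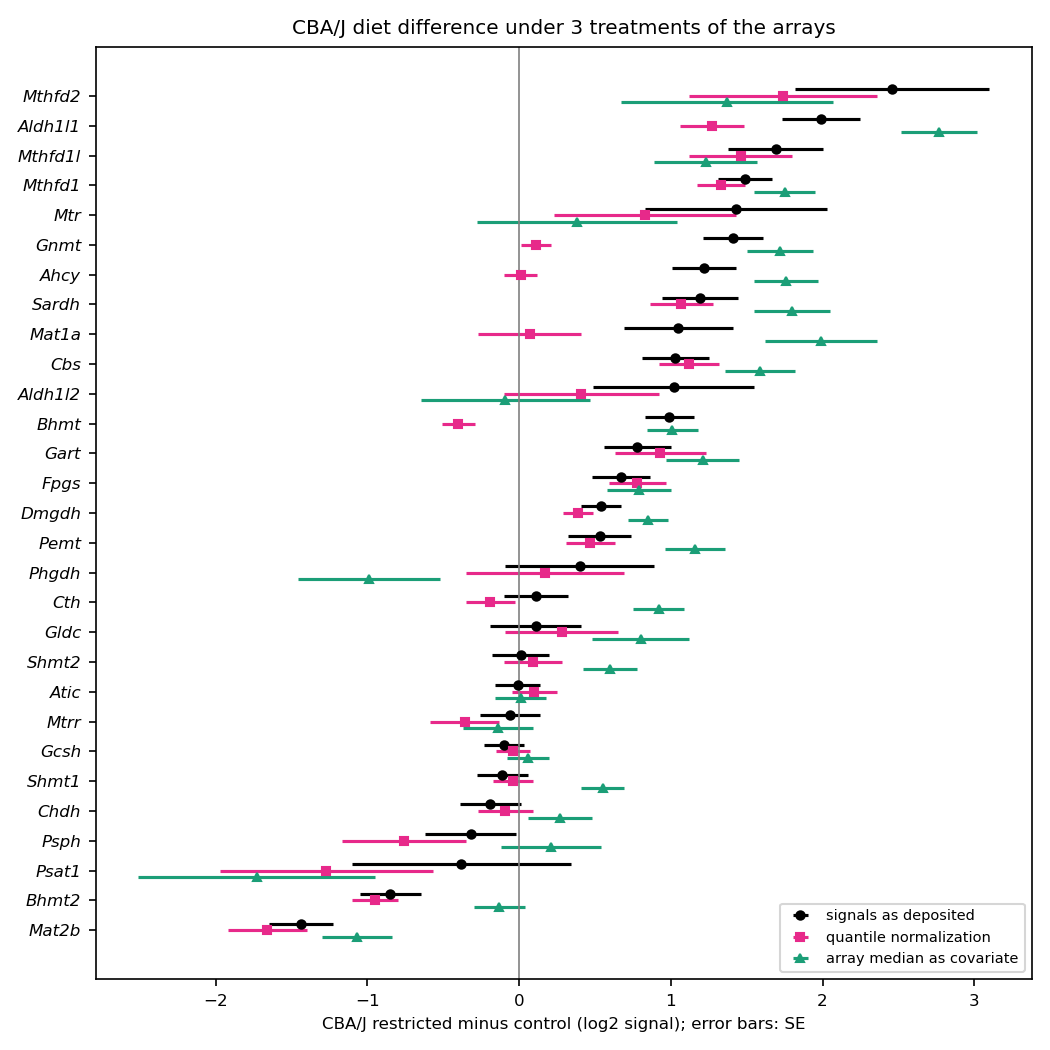
CBA/J restricted minus control difference (x axis, log2 signal, with SE) of each of the 29 genes (y axis), from the signals as deposited (black circles), after quantile normalization (pink squares) and with each array's median as covariate (green triangles). Bhmt lies at 0.99 as deposited and at -0.40 after quantile normalization, while Mat2b lies left of 0 in all 3.

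The diet response depended on strain for 10 of the 29 genes by limma's F test of the interaction, or 34.5%, against 23.9% of all genes. They were Bhmt (adjusted p = 1.88e-09), Mat2b (4.05e-07), Gnmt (2.5e-05), Dmgdh (0.000152), Ahcy (0.000689), Sardh, Aldh1l1, Fpgs, Mthfd1 and Cbs. In each of them CBA/J held the highest or the lowest strain difference. The second probe sets of Cbs, Aldh1l1 and Sardh were not called for the interaction (adjusted p = 0.0995, 0.125 and 0.0975 over all probe sets tested). For Mthfd1 the second set was not called (0.853), and the dimmest was (0.000184), with CBA/J at -1.45. Without CBA/J none of the 29 was called by limma, where 1.55% of all genes were. At an unadjusted p under 0.05, where all genes were not counted, there were 3 (Cbs, Shmt1 and Atic). After quantile normalization 7 were called, against 18.6% of all genes, namely Mat2b, Bhmt2, Cbs, Mthfd1, Fpgs, Sardh and Dmgdh. Bhmt, Gnmt and Ahcy then had adjusted p values of 0.467, 0.702 and 0.411. The array median as covariate gave 15 interaction calls (22.6% of all genes) and leaving out the 2 bright arrays 13 (30.2%). Leaving out single arrays took the interaction adjusted p of Mat1a from 0.212 to as low as 5.74e-07. It reached 0.000313 for Bhmt2, 0.00608 for Gart and 0.0289 for Mthfd2. Other probe sets of Bhmt2 (0.00132), Shmt1 (0.00245), Mtr (0.0311) and Phgdh (0.031) were called, where the sets used were not.

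On the control diet the strains differed for 15 of the 29 genes (51.7%) by limma's F test, against 43.7% of all genes. Each strain was then set against the mean of the other 5. 129S1/SvImJ livers had the most one-carbon genes called higher, 9 of 29, with 1 lower, where 12.7% of all genes were called, 6.17% higher and 6.58% lower. They were the methionine cycle genes Gnmt (0.64 ± 0.16 SE, adjusted p = 0.00158) and Ahcy (0.55), the choline genes Bhmt (0.62), Chdh (0.51) and Dmgdh (0.30), and Cbs (0.56), Shmt2 (0.72), Fpgs (0.92) and Gldc (0.98). The lower one was the dim Psat1 (-1.83 ± 0.56 SE, adjusted p = 0.0164).

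C57BL6/J livers had 7 genes lower and 1 higher, where 16.3% of all genes were called, 8.68% higher and 7.59% lower. Gnmt, Ahcy, Bhmt, Shmt2 and Fpgs, all higher in 129S1/SvImJ, were lower in C57BL6/J, at -0.58, -0.50, -0.60, -0.41 and -0.40. These 2 contrasts share all 6 control groups. Mtrr (-0.61) and the dim Aldh1l2 (-1.22) were also lower. Mat2b was the gene higher in C57BL6/J (1.13 ± 0.16 SE, adjusted p = 4.54e-08).

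These control-diet differences depended on the scaling of the arrays. After quantile normalization 129S1/SvImJ had 5 genes higher (Chdh, Cbs, Shmt2, Fpgs and Gldc) and Psat1 lower, where 4.48% of all genes were higher and 6.18% lower. Gnmt, Ahcy, Bhmt and Dmgdh were then at 0.22, 0.09, 0.06 and 0.20 in 129S1/SvImJ, not called. C57BL6/J had Shmt2, Fpgs and Mtrr lower and Mat2b higher, where 5.12% of all genes were lower and 6.41% higher. Gnmt, Ahcy and Bhmt were at -0.11, 0.02 and 0.10 in C57BL6/J, not called, and Aldh1l2 had an adjusted p of 0.0842.

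In CBA/J on the control diet Cbs (-0.91), Sardh (-0.71) and the dim Mthfd2 (-1.75) were lower, where 12.1% of all genes were called, 5.52% higher and 6.59% lower. In DBA/2J, Chdh (-0.92 ± 0.16 SE, adjusted p = 4.81e-06), Gldc (-0.73) and Mthfd1 (-0.50) were lower and Cth (0.46) and Bhmt (0.36) higher, at 14.6% of all genes, 7.25% higher and 7.36% lower. In B6C3F1/J, Atic (0.34) was higher and Mat2b (-0.79) lower, at 11.1% of all genes, 3.48% higher and 7.67% lower. In C3H/HeJ 0 of the 29 were called by limma, where 5.83% of all genes were called higher and 4.18% lower, and the differences ran from -0.42 for Mat2b to 0.56 for Psat1. Quantile normalization gave 0 higher and 2 lower in DBA/2J (Chdh and Mthfd1), where 5.46% of all genes were higher and 5.62% lower. CBA/J then had 5 lower, where 4.32% of all genes were higher and 4.12% lower. B6C3F1/J had 3 higher and 2 lower, at 3.17% and 10.2% of all genes. C3H/HeJ had 1 higher, where 3.45% of all genes were higher and 2.44% lower. Without the 2 bright arrays B6C3F1/J had 7 higher and 1 lower, where 5.49% of all genes were higher and 4.74% lower.

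**Figure D5:**
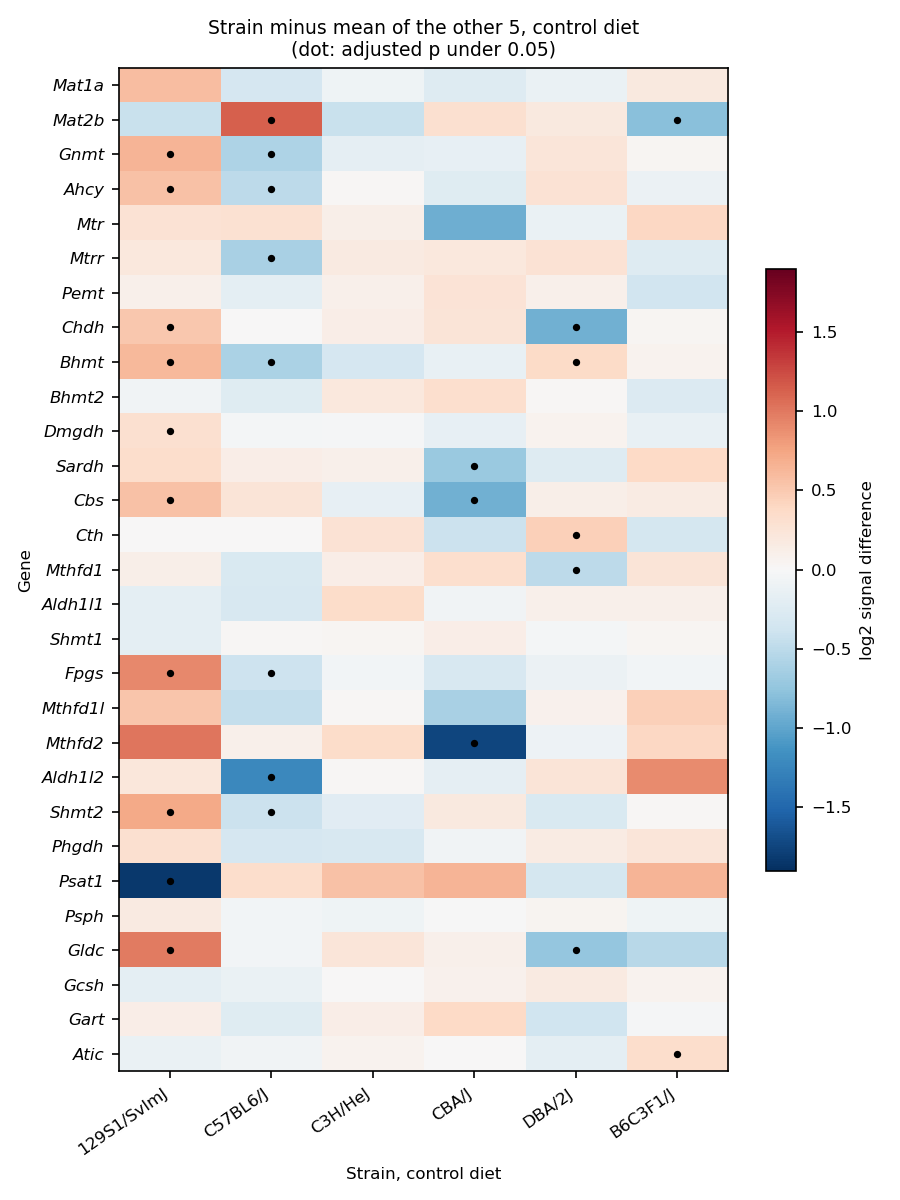
Colour shows, for each gene (y axis) and strain (x axis), the control-diet log2 signal of the strain minus the mean of the other 5 strains, with a dot where the adjusted p is under 0.05. The 129S1/SvImJ column holds 9 called genes above 0 and the C57BL6/J column 7 below 0.

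The control-diet levels of Mat2b show how far strains can differ. The mean log2 signal was 9.0 ± 0.38 in B6C3F1/J, 9.30 ± 0.77 in 129S1/SvImJ, 9.31 ± 0.28 in C3H/HeJ, 9.81 ± 0.32 in DBA/2J, 9.91 ± 0.28 in CBA/J and 10.60 ± 0.22 in C57BL6/J (SD, n = 8 each). From B6C3F1/J to C3H/HeJ, and between DBA/2J and CBA/J, neighbours in this order lay within 1 SD of each other. The cross B6C3F1/J was lower for Mat2b than the mean of its parents, C57BL6/J and C3H/HeJ, by -0.95 ± 0.18 SE (adjusted p = 0.00027), and its median lay below those of both parents. Bhmt was the only other gene called against the mean of the parents (0.44 ± 0.13 SE, adjusted p = 0.023), where 8.94% of all genes were called, 2.72% higher and 6.22% lower. Without the 2 bright arrays 7 genes were called in that comparison, 6 higher and 1 lower, where 8.13% of all genes were called.

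Other genes of the same pathways, from lists chosen with earlier results of these data known, moved in both directions in the average over strains, set against the 15.2% higher and 12.4% lower among all genes. Of 12 other folate genes 6 were higher and 1 lower, with a median of 0.17. The 3 with the smallest p were the folate carrier Slc19a1 (0.47, adjusted p = 9.35e-06), the cobalamin carrier Tcn2 (0.35) and Ftcd (0.24), which passes carbon from histidine breakdown to folate. Of 9 S-adenosylmethionine methyltransferases and adenosine enzymes 3 were higher and 0 lower, with a median of 0.03. They were Nnmt, the nicotinamide methyltransferase, at 3.26 (adjusted p = 2.79e-30), the arsenite methyltransferase As3mt (0.53) and the indolethylamine methyltransferase Inmt (0.50).

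Of 13 other choline and phosphatidylcholine genes 3 were higher and 5 lower, with a median of -0.09. The terminal enzymes of the direct route from choline to phosphatidylcholine, Chpt1 (-0.48, adjusted p = 4.65e-08) and Cept1 (-0.41, adjusted p = 1.66e-08), were lower, where Pemt, of the methylation route, was at 0.61. Both were below 0 in all 6 strains. Aldh9a1, an aldehyde dehydrogenase of the carnitine and betaine paths, was also lower (-0.44).

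Of 10 other cysteine and glutathione genes 3 were higher and 5 lower, with a median of -0.12. Got1, the cytosolic aspartate aminotransferase, was higher (1.85, adjusted p = 1.89e-13), as was the sulfide oxidase Sqor (0.59), while Gclc, which makes the first product of glutathione synthesis, was lower (-0.55). Of 7 polyamine and methionine salvage genes 2 were higher, the salvage enzymes Apip (0.34) and Mri1 (0.28), and 1 lower, the ornithine decarboxylase Odc1 (-0.29), with a median of -0.04. Of 11 other serine and glycine genes 3 were higher and 2 lower, with a median of -0.01, among them the aminotransferase Agxt (0.51), the oxidase Pipox (0.34) and the reductase Grhpr (-0.40). Of 9 other purine genes 1 was higher and 3 lower, with a median of 0.06, the 3 being Gmps (-0.24), Adss (-0.24) and Ppat (-0.23).

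ATF4, the transcription factor of amino acid shortage, is known to drive Psat1, Phgdh and Mthfd2 in other settings. Of 11 genes in a list of ATF4 and its targets 5 were higher and 1 lower, with a median of 0.15. The asparagine synthetase Asns (1.51, adjusted p = 1.84e-08) and the lipoprotein receptor Vldlr (1.07) were higher and the factor Atf5 (-0.84) was lower. Beside them Psat1 was at 1.04, and Mthfd2 (0.54) and Phgdh (0.10) were not called.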

How the data were processed

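Each of the 96 livers was hybridised to its own 1-colour Affymetrix mouse array. The authors deposited linear intensity values made with MAS5, per the submitters' processing notes, whose version was not given in the sources used here. The trimmed mean of every array lay between 500 and 500.2, so arrays had been scaled to one level. Arrays have no read depth, and their number limits the precision.

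Signals were turned into log2 values in R 4.3.3. After removal of 64 control probe sets from 45101, a probe set was kept when it was at or above the array median in at least 8 arrays, which left 32984. By the annotation, 34958 probe sets had 1 symbol, 932 had several and 9211 had none. RefSeq held the gene of 34754 of those with 1 symbol. The brightest kept probe set stood for each gene, giving 14813 genes. limma 3.58.1 fitted a mean for each of 12 groups, with eBayes trend and robust variances and Benjamini-Hochberg adjustment. Contrasts were the diet difference averaged over strains and in each strain, the interaction F test, the F test over control groups, each strain against the other 5, and B6C3F1/J against its parents.

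The members and lists were chosen with earlier results of these data known. Members given with every group were the 5 largest rises and 5 largest falls called, of which there were 3, the 4 smallest interaction p and the 4 widest ranges of control means; up to 3 genes of each pathway list with the smallest p were named. Marker lists covered hepatocytes, pericentral and periportal hepatocytes, Kupffer, endothelial and stellate cells, cholangiocytes and lymphocytes. Groups came from the labels. Same-numbered mice of the 2 diets showed correlations of -0.17 to 0.14, with 5 of 48 pairs over 0.1, so numbers were not taken to pair mice. The fit was tested on simulated data. Alternatives were quantile normalization, centring on the 75th percentile, an offset of 8.55, no filter and a filter of 48 arrays, the mean of probe sets, no trend, array weights, a replicate block, the array median as a covariate, and leaving out single arrays, arrays with a median above 8, or CBA/J. Figures were drawn in Python 3.11.15 with matplotlib 3.10.9.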

Additional observations from a re-analysis of the deposited data

Results flagged for a closer look

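Among 168 groups of 8 mice, 14 genes in 12 groups each, 23 held a mouse whose gap to its nearest neighbour was a large share of the group's range by Dixon's criterion, which chance alone meets in about 1 in 20 groups. Of the 23, 7 were from B6C3F1/J control replicate 2 and 6 from DBA/2J restricted replicate 6, the arrays with a median log2 signal above 8. In B6C3F1/J control replicate 2 the log2 signals were 11.93 for Aldh1l1, 10.80 for Mthfd1, 10.65 for Pemt, 10.79 for Bhmt2, 10.76 for Chdh, 12.06 for Dmgdh and 8.59 for Gldc, each the lowest of its group. In DBA/2J restricted replicate 6 they were 11.33 for Aldh1l1, 10.66 for Pemt, 15.18 for Bhmt, 13.89 for Gnmt, 12.66 for Dmgdh and 10.19 for Cbs, again the lowest of each group. The part of the array medians in these values was not tested.

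The remaining 10 were spread over 8 arrays. C57BL6/J restricted replicate 2 had the highest Pemt of its group, 13.68, and the lowest Chdh, 10.64. CBA/J control replicate 2 had the lowest Psat1, 2.31, and the highest Gnmt, 16.25. The other low values were 1.45 for Psat1 in C57BL6/J control replicate 7, 13.71 for Bhmt2 in C3H/HeJ control replicate 1, 9.59 for Mat2b in DBA/2J restricted replicate 2, 12.73 for Dmgdh in C3H/HeJ restricted replicate 4, 1.58 for Mthfd2 in C3H/HeJ restricted replicate 8 and 10.19 for Gldc in 129S1/SvImJ control replicate 8.

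The diet difference varied between strains by limma's interaction F test for 10 genes. The adjusted p was 1.88e-09 for Bhmt, 4.05e-07 for Mat2b, 2.5e-05 for Gnmt, 0.000152 for Dmgdh, 0.000689 for Ahcy, 0.00269 for Sardh, 0.00396 for Aldh1l1, 0.00609 for Fpgs, 0.0176 for Mthfd1 and 0.0178 for Cbs. None of the 10 was called without CBA/J. By their second probe sets Cbs, Aldh1l1, Sardh and Mthfd1 were not called.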

How the results depend on the processing

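For diet averaged over strains, 12 one-carbon genes were called, and the alternatives gave 9 to 15, with 11 to 15 on leaving out single arrays and 12 with the replicate block. No averaged difference of a called gene changed sign under any setting tried. Gnmt, Ahcy and Sardh lost their calls with quantile normalization, with centring on the 75th percentile and without CBA/J, Bhmt2 without CBA/J and Chdh with the array median as a covariate. Mthfd1 lost its call with 1 of its other probe sets. The causes were not tested.

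Counts within strains moved more, and the share of all genes called under the same setting stands in brackets. For counts at an unadjusted p under 0.05 the share of all genes was not counted. In 129S1/SvImJ (4 called) centring on the 75th percentile gave 2 (3.41%), array weights 9 (10.2%), leaving out arrays with a median above 8 gave 8 (9.36%), the covariate 7 (7.46%) and a fit of the 2 groups alone 7 (6.78%). In C57BL6/J (2 called) quantile normalization gave 4 (3.15%), centring 1 (2.24%), array weights 9 (20.8%), leaving out the bright arrays 5 (7.2%) and the fit of 2 groups 5 (10.3%). In C3H/HeJ (0 called by limma, 7 at an unadjusted p under 0.05) quantile normalization gave 2 (1.79%), the filter of 48 arrays 1 (2.93%), array weights 5 (9.51%), the replicate block 1 (2.12%), leaving out the bright arrays 4 (4.1%), the covariate 3 (2.94%) and the fit of 2 groups 6 (7.27%). In DBA/2J (1 called) quantile normalization gave 2 (6.58%), the mean of probe sets 2 (5.52%), array weights 4 (5.89%), leaving out the bright arrays 6 (8.34%), the covariate 2 (7.01%) and the fit of 2 groups 0 by limma (0.925%), with 4 at an unadjusted p under 0.05. In B6C3F1/J (4 called) the fit of 2 groups gave 0 by limma (1.06%), with 4 at an unadjusted p under 0.05. The interaction (10 called) had 0 without CBA/J (1.55%). The control strain test (15 called, 43.7% of all genes) had 25 with array weights (61.8%). B6C3F1/J against its parents (2 called) had 4 with quantile normalization (9.14%), 1 with centring (7.82%), 12 with array weights (13.1%), 7 without the bright arrays (8.13%) and 4 with the covariate (4.33%). The replicate block moved no other count by more than 1.5 times. Signals near or below the mean array median limit what can be said of Psat1, Mthfd2, Mtr and Aldh1l2.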
